A study of Mus musculus with 32 samples.

Results

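The genes described here make cholesterol, sense its level in the cell or move it out of the cell. They were the 29 genes on a given list: 19 enzymes of cholesterol synthesis, 5 genes of the SREBP2 switch that turns synthesis on, and 5 genes of the liver X receptors (LXR) and cholesterol efflux. The list holds no lipoprotein receptor, and of lipoprotein uptake only the regulator Mylip. Each gene was taken from the microarray by matching its probes' transcript accession to RefSeq, and the brightest probe was used where a gene had more than 1. All 29 genes had a probe well above background on all 32 arrays, and all 29 were among the 23734 genes and transcripts tested.

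The series measured kidney RNA of male mice aged 12 to 16 weeks on 32 single-colour Agilent arrays, 1 array per animal. Wild-type C57BL/6 mice came from Charles River, and mice lacking miR-155 (miR-155-/-, B6.Cg-Mir155tm1.1Rsky/J) derived from Jackson Laboratory stock, so genotype and supplier cannot be told apart. Mice of each genotype received saline and were collected at 0 h, or received 20 mg/kg of cisplatin, a platinum drug that damages kidney tubules, and were collected 24, 48 or 72 h later. Each of the 8 groups held 4 animals. Saline was given only at 0 h, so the effects of cisplatin and of time since an injection cannot be told apart. No probe was matched to the host gene of miR-155, and its deletion was not checked from these arrays.

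Cells build cholesterol from acetyl-CoA through mevalonate, isoprenoids, squalene and lanosterol. When membrane sterol is low, SCAP carries SREBP2 from the endoplasmic reticulum to the Golgi, where it is cut and released to switch on the synthesis genes, and INSIG proteins hold it back when sterol is plentiful. Oxysterols and some late intermediates activate the LXRs, which switch on the exporters ABCA1 and ABCG1 and the ubiquitin ligase MYLIP, which lowers lipoprotein uptake. Proximal tubule cells, the main site of cisplatin injury in the kidney, carry a brush border of densely folded, cholesterol-containing membrane.

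The upstream sequences of 5 synthesis genes are shown because SREBP2 acts there together with the factors that bind CCAAT and GC boxes. Hmgcs1, Idi1, Mvd and Cyp51 fell after cisplatin in both genotypes, and Msmo1 rose at 24 and 48 h in miR-155-/- kidneys. The set was chosen with these values known. Each line gives the 250 bases before the transcription start in RefSeq's mouse assembly GRCm38.p6, from 5′ to 3′ on the gene's strand. Capitals mark matches to the sterol regulatory element TCACNCCAC and to the CCAAT box, which reads ATTGG on the other strand.
Hmgcs1 chr13:119690101-119690350, plus strand: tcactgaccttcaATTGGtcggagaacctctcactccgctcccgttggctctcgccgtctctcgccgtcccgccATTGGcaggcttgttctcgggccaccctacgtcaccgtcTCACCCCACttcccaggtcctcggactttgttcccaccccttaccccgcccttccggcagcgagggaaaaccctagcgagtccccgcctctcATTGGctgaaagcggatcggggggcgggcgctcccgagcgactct
Idi1 chr13:8885356-8885605, plus strand: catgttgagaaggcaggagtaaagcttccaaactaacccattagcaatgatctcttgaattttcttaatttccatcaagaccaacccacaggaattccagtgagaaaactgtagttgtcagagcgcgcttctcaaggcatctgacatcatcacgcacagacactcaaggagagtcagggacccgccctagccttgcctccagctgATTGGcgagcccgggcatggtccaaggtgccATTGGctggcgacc
Mvd chr8:122443423-122443672, minus strand: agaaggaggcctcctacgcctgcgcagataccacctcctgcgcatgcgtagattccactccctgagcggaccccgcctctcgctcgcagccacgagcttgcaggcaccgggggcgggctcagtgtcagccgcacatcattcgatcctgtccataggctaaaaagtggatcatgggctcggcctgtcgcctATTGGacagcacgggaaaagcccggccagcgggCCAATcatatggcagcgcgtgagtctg
Cyp51 chr5:4104698-4104947, minus strand: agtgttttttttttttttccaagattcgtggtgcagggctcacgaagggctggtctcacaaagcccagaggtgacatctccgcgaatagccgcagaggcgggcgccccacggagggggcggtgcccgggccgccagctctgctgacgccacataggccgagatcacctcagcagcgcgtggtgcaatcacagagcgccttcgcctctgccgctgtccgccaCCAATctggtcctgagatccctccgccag
Msmo1 chr8:64733579-64733828, minus strand: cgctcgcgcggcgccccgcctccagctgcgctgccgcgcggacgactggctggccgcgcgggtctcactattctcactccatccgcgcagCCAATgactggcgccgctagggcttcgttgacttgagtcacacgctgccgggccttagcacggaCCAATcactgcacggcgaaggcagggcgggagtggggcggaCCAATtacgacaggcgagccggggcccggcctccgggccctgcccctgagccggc

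A window was matched for 24 of the 29 genes; those of Fdps, Fdft1, Sqle, Stard4 and Abcg1 were not matched. Both strands were searched, and no motif contains another. TCACNCCAC was found in 1 of the 16 synthesis windows, that of Hmgcs1, where TCACCCCAC lies 137 to 129 bases upstream of the start, and in 1.04% of the 27025 windows of all genes. CCAAT was found in 14 of 16 synthesis windows (87.5%), in 3 of 4 windows of SREBP2 control genes and in 1 of 4 windows of LXR and efflux genes, against 34.5% of all genes. Idi1, which fell, carried it 45 to 41 and 14 to 10 bases upstream. Msmo1, called higher only in miR-155-/- at 24 and 48 h, carried it at 160 to 156, 96 to 92 and 55 to 51. The synthesis windows without it were those of Dhcr7, which fell, and Acat2, which rose. The GC box GGGCGG, left in lower case above, occurred in 14 of 16 synthesis windows, 2 of 4 control windows and 2 of 4 efflux windows, against 32.9% of all genes. The LXR element, AGGTCA repeated in the same direction after a gap of 4 bases, was in 0.0111% of all windows and in none of these 24 windows. A match describes letters in this window only. Only these exact patterns were searched, so an element spelled otherwise would not be counted or marked.

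Levels are given as log2 of the processed spot intensity with the 75th percentile of each array set to 0, so a step of 1 is a doubling. A level can be compared between arrays for a gene, but not between genes. Across arrays, 67.9% to 81.8% of probes were well above background. All 10 proximal tubule markers passed the filter on dim probes. Hepatocyte markers such as Alb and Ttr passed it as well, so passing it does not check the kidney label. In bulk tissue, fewer cells of a type and less RNA per cell cannot be told apart. miR-155-/- replicate 3 at 48 h stood apart from the other 3 arrays of its group on the first and second principal components. These held 40.4% and 15.8% of the variance. miR-155-/- replicate 3 at 24 h lay farthest out in its group, at 87.77 on the first component. Replicate 4 of that group (70.58) lay nearer to it than to replicates 1 and 2 (18.38 and 20.12). The 2 replicate 3 arrays are named below as the 2 arrays that stood apart, and replicate 4 at 24 h stayed in the fits without them. Summed red blood cell markers on a linear scale were 9 on the 24 h array, against 1.36 to 2.51 on the others of its group. On the 48 h array they were 34.5, against 0.555 to 1.82. Saline arrays held 3.08 to 9.19 in wild type and 3.66 to 7.77 in miR-155-/-. Hepatocyte markers summed to 101 on the 24 h array, against 49.3 to 68.7, and podocyte markers to 14.8, against 8.01 to 9.83. Its macrophage markers summed to 15.1, against 17.1 to 25. Distal tubule markers summed to 26.4 on the 48 h array, against 78.1 to 122. The part of these markers in the results was not tested, and the results that the 2 arrays moved most are given with and without these arrays.

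After cisplatin, a subset of the synthesis enzymes fell in both genotypes while no LXR or efflux gene was called higher with all arrays in the fit. Of the 19 genes, 5, namely Hmgcs1, Mvd, Idi1, Cyp51 and Dhcr7, were called lower than saline at all 3 times in both genotypes. Cyp51 and Idi1 showed the largest falls, up to 6.84-fold and 6.35-fold in miR-155-/- kidneys at 72 h. Acat2 went the other way and was 5.62-fold higher in wild type at 72 h. A call means an adjusted p under 0.05 in limma's moderated test with Benjamini-Hochberg adjustment over all genes tested, and ± is the standard error of the log2 difference with 4 arrays a group.

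In wild type, limma called 9, 7 and 7 of the 19 synthesis genes lower at 24, 48 and 72 h, and 1, 1 and 3 higher. Over all genes tested, 17.6%, 11.6% and 12.8% were called lower and 21.0%, 12.2% and 12.5% higher. In miR-155-/- kidneys the counts were 10, 8 and 11 lower, against a background of 22.5%, 21.1% and 17.5%, and 2, 2 and 1 higher, against 26.6%, 22.7% and 17.7%. The median synthesis gene differed from saline by -0.25, -0.27 and -0.33 in wild type and by -0.40, -0.32 and -0.45 in miR-155-/-, on the log2 scale. The corresponding median of all genes tested lay between -0.05 and 0.07. Fdps and Ggps1 were called in none of the 6 comparisons. Without the 2 arrays that stood apart, 10, 9, 9, 10, 7 and 13 synthesis genes were called lower and 2, 2, 3, 4, 2 and 2 higher. The shares of all genes called in that fit are not given here, so these counts cannot be set against the shares above. Dropping the arrays also changed standard errors in wild type, where that of Acat2 at 24 h went from 0.38 to 0.18. Beside the differences given with their genes below, these were called without the 2 arrays and not with them: Fdps at 72 h in both genotypes (-0.38 and -0.39), Sc5d (-0.34 and -0.40) and Insig1 (-0.43 and -0.45) in wild type at 48 and 72 h, and Tm7sf2 (-0.25 and -0.27) in wild type at 24 and 48 h. The others were Hsd17b7 in wild type at 48 h (0.31) and in miR-155-/- at 72 h (0.42), Scap in wild type at 48 h (0.18), and Sqle (0.27) and Mylip (-0.40) in miR-155-/- at 24 h.

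Counting genes whose 4 cisplatin arrays all lay below all 4 saline arrays gave 9, 8 and 11 synthesis genes in wild type and 9, 8 and 12 in miR-155-/-. Over all genes this held for 21.0%, 17.5%, 20.8%, 18.2%, 18.2% and 20.3%. All cisplatin arrays lay above saline for 3, 2, 3, 1, 2 and 2 synthesis genes, against 25.4%, 17.3%, 19.3%, 21.9%, 19.6% and 19.7% of all genes. The heat map of every array shows the same blue bands for Hmgcs1, Mvd, Idi1, Cyp51 and Dhcr7 in both genotypes.

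**Figure D1:**
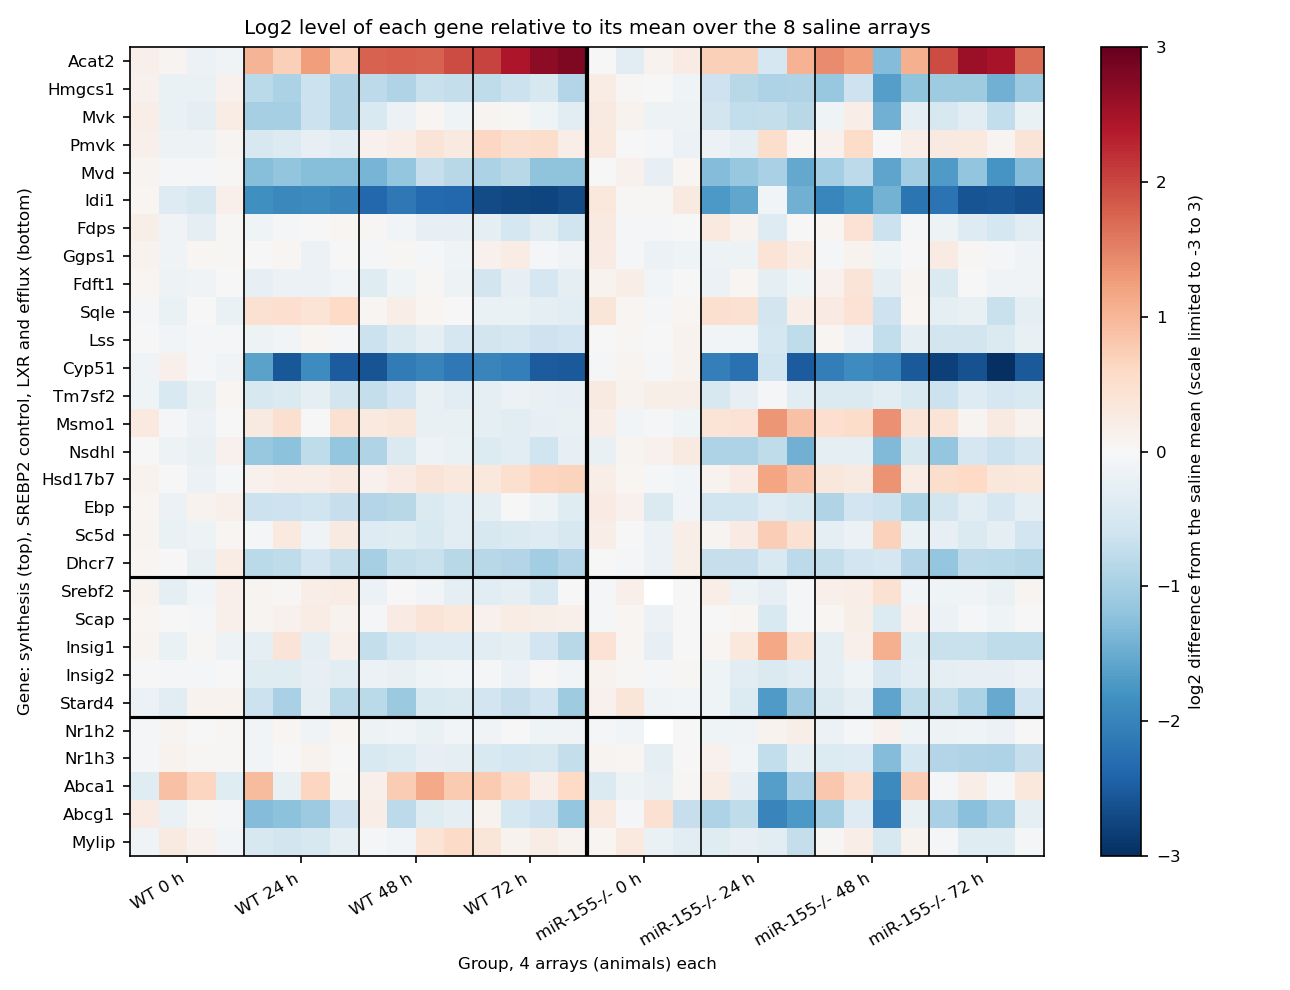
Log2 level of each of the 29 genes (rows) on each of the 32 arrays (columns, 4 a group) relative to the gene's mean over the 8 saline arrays; colour runs from -3 (blue) to 3 (red), and the 2 white cells of miR-155-/- saline replicate 3 (Srebf2 and Nr1h2) are left-out values. Idi1 and Cyp51 are blue in nearly every cisplatin column, Acat2 is red from 48 h in wild type, and replicate 3 of the miR-155-/- groups at 24 and 48 h differs from its neighbours in several genes.

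Acat2, the thiolase that joins acetyl-CoA units in the first step, rose at 48 and 72 h in wild type and at 72 h in miR-155-/-. Its wild-type levels were -0.02, -0.11, -0.36 and -0.28 with saline, 0.83, 0.54, 1.06 and 0.50 at 24 h, 1.59, 1.60, 1.59 and 1.77 at 48 h and 1.84, 2.25, 2.49 and 2.62 at 72 h. In miR-155-/- kidneys they were -0.17, -0.52, -0.08 and 0.07 with saline, 0.54, 0.53, -0.68 and 0.86 at 24 h, 1.24, 1.06, -1.48 and 0.88 at 48 h and 1.78, 2.39, 2.28 and 1.5 at 72 h. All wild-type cisplatin arrays lay above saline and their ranges at 24, 48 and 72 h did not overlap, whereas replicate 3 of the miR-155-/- groups lay below saline at 24 and 48 h. The log2 differences in wild type were 0.92 ± 0.38, 1.83 and 2.49, called at 48 and 72 h (limma adjusted p 0.000582 and 1.03e-05) and not at 24 h (0.0517). In miR-155-/- they were 0.49, 0.60 and 2.16, with adjusted p 0.3, 0.202 and 4.51e-05. Without the 2 arrays that stood apart, the differences in miR-155-/- were 0.82 ± 0.19 at 24 h and 1.23 ± 0.19 at 48 h, both called, and the wild-type 24 h difference was called as well (adjusted p 8.43e-05). Acat3, a near-identical gene chosen after its values were seen, was called higher in all 6 comparisons (0.91 to 2.15), and whether the probes of the pair read each other's transcripts was not tested.

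Hmgcs1, the cytosolic synthase that makes HMG-CoA, fell at every time. The wild-type arrays read 5.91, 5.60, 5.60 and 5.92 with saline, 4.97, 4.85, 5.15 and 4.88 at 24 h, 5.0, 4.88, 5.13 and 5.08 at 48 h and 5.02, 5.15, 5.30 and 4.92 at 72 h. The miR-155-/- arrays read 6.01, 5.82, 5.78 and 5.67 with saline, 5.16, 4.96, 4.86 and 4.88 at 24 h, 4.66, 5.16, 4.13 and 4.58 at 48 h and 4.73, 4.72, 4.35 and 4.70 at 72 h. No cisplatin array reached the lowest saline array of its genotype. The differences were -0.79 ± 0.14, -0.73 and -0.66 in wild type (falls of 1.73-, 1.66- and 1.58-fold) and -0.85, -1.19 and -1.19 in miR-155-/- (1.81-, 2.28- and 2.29-fold). The largest adjusted p of the 6 was 0.000833 by limma. Without the 2 arrays that stood apart, the miR-155-/- difference at 48 h was -1.02.

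Mvk, which phosphorylates mevalonate, was lower at 24 h and was not called later with all arrays in the fit. Wild-type values were 1.85, 1.47, 1.37 and 1.89 with saline, 0.67, 0.66, 1.01 and 0.76 at 24 h, 1.20, 1.49, 1.71 and 1.54 at 48 h and 1.74, 1.69, 1.52 and 1.33 at 72 h. Those of miR-155-/- were 1.92, 1.76, 1.51 and 1.51 with saline, 1.12, 0.92, 0.95 and 0.83 at 24 h, 1.54, 1.86, 0.23 and 1.39 at 48 h and 1.19, 1.33, 0.91 and 1.46 at 72 h. At 24 h every array of both genotypes lay below saline, and at 48 and 72 h wild-type arrays overlapped it, whereas all miR-155-/- arrays lay below saline at 72 h. Limma called the 24 h difference in wild type (-0.87 ± 0.21, adjusted p 0.00175) and in miR-155-/- (-0.72, 0.00631). The later differences were -0.16 and -0.08 in wild type and -0.42 and -0.45 in miR-155-/-, none called (adjusted p 0.641, 0.827, 0.111 and 0.101). In the fit without the 2 arrays that stood apart, the miR-155-/- value of Mvk at 48 h was -0.08, and that at 72 h, still -0.45, was called (adjusted p 0.0103). Pmvk, the next kinase, was called lower in wild type at 24 h (-0.36 ± 0.14) and higher at 72 h (0.47, adjusted p 0.0127). Its 24 h call was lost without wild-type saline replicate 1 or 4 or wild-type 24 h replicate 1, 2 or 4 (-0.37 to -0.31), with the array slide as a block (-0.37, adjusted p 0.0605), with the replicate number as a block (0.0519) and with no filter on dim probes (0.0519). Both Pmvk calls were lost with normexp background correction.

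Mvd, which makes isopentenyl diphosphate, fell at every time. The wild-type levels were 1.66, 1.53, 1.54 and 1.61 with saline, 0.30, 0.39, 0.30 and 0.30 at 24 h, 0.17, 0.42, 0.87 and 0.73 at 48 h and 0.62, 0.73, 0.36 and 0.37 at 72 h. The miR-155-/- levels were 1.58, 1.69, 1.33 and 1.62 with saline, 0.27, 0.44, 0.60 and 0.04 at 24 h, 0.55, 0.78, -0.02 and 0.53 at 48 h and -0.14, 0.38, -0.19 and 0.26 at 72 h. Every cisplatin array lay below every saline array of its genotype. Differences were -1.26 ± 0.16, -1.04 and -1.07 in wild type (adjusted p 4.28e-07, 1.51e-05 and 8.89e-06) and -1.22, -1.10 and -1.48 in miR-155-/- (7e-07, 3.87e-06 and 2.99e-08, limma). These are falls of 2.05- to 2.79-fold.

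Idi1, the isomerase that supplies dimethylallyl diphosphate, fell at every time and was lowest at 72 h. On wild-type arrays it measured 3.93, 3.48, 3.38 and 4.01 with saline, 2.02, 1.93, 1.96 and 1.88 at 24 h, 1.5, 1.73, 1.53 and 1.5 at 48 h and 1.18, 1.14, 1.12 and 1.17 at 72 h. On miR-155-/- arrays it measured 4.17, 3.90, 3.91 and 4.13 with saline, 2.13, 2.30, 3.77 and 2.42 at 24 h, 1.91, 2.07, 2.45 and 1.68 at 48 h and 1.65, 1.28, 1.29 and 1.22 at 72 h. The wild-type ranges at the 4 times did not overlap each other, and miR-155-/- replicate 3 at 24 h, an array that stood apart, lay just below the saline range. The differences were -1.75 ± 0.22, -2.14 and -2.55 in wild type (falls of 3.37-, 4.4- and 5.87-fold, adjusted p 3.66e-07, 2.69e-08 and 9.9e-10). In miR-155-/- they were -1.37, -2.0 and -2.67 (2.59-, 4- and 6.35-fold, limma adjusted p 1.16e-05, 5.28e-08 and 2.51e-10). Without the 2 arrays that stood apart, the 24 h difference in miR-155-/- was -1.74.

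The isoprenoid and squalene enzymes between Idi1 and lanosterol had few calls. Fdps, which makes farnesyl diphosphate, lay between -0.39 and 0.02 log2 units from saline, and Ggps1, which makes geranylgeranyl diphosphate, between -0.06 and 0.10, with no call. Fdft1, the squalene synthase, was called lower in wild type at 72 h (-0.34 ± 0.12, adjusted p 0.0377), and the call was lost without wild-type saline replicate 1, 3 or 4 or wild-type 72 h replicate 1 or 3 (-0.35 to -0.29). Sqle, the epoxidase that acts on squalene, was higher in wild type at 24 h (0.60 ± 0.18, adjusted p 0.00879) and lower in miR-155-/- at 72 h (-0.47, 0.0386). The 72 h call was lost without miR-155-/- saline replicate 1, 2 or 4 or 72 h replicate 1 or 3 (-0.50 to -0.37). Lss, which closes the sterol rings, was called lower in wild type at 48 and 72 h (-0.43 ± 0.14 and -0.52) and in miR-155-/- at 24 and 72 h (-0.40 and -0.48). Its wild-type 48 h call was lost without saline replicate 1 or 4 or 48 h replicate 1 or 4 (-0.42 to -0.37), and its miR-155-/- 24 h call without 24 h replicate 3 or 4 (-0.35 to -0.27). With normexp background correction limma called none of these differences of Fdft1, Sqle and Lss.

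Cyp51, the lanosterol demethylase, fell at every time in both genotypes. Its wild-type levels were 0.47, 0.74, 0.54 and 0.48 with saline, -1.03, -1.97, -1.3 and -1.92 at 24 h, -2.0, -1.51, -1.43 and -1.57 at 48 h and -1.39, -1.47, -1.92 and -1.94 at 72 h. In miR-155-/- the arrays gave 0.54, 0.67, 0.54 and 0.68 with saline, -1.47, -1.65, -0.01 and -1.92 at 24 h, -1.49, -1.3, -1.39 and -1.93 at 48 h and -2.22, -2.03, -2.47 and -1.94 at 72 h. No cisplatin array reached the saline range, and miR-155-/- replicate 3 at 24 h was the nearest to it. Differences were -2.12 ± 0.27, -2.19 and -2.24 in wild type (falls of 4.33-, 4.55- and 4.72-fold) and -1.87, -2.14 and -2.77 in miR-155-/- (3.65-, 4.4- and 6.84-fold). The adjusted p in limma ranged from 4.33e-09 to 2.56e-06. Without the 2 arrays that stood apart, the miR-155-/- difference at 24 h was -2.29.

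**Figure D2:**
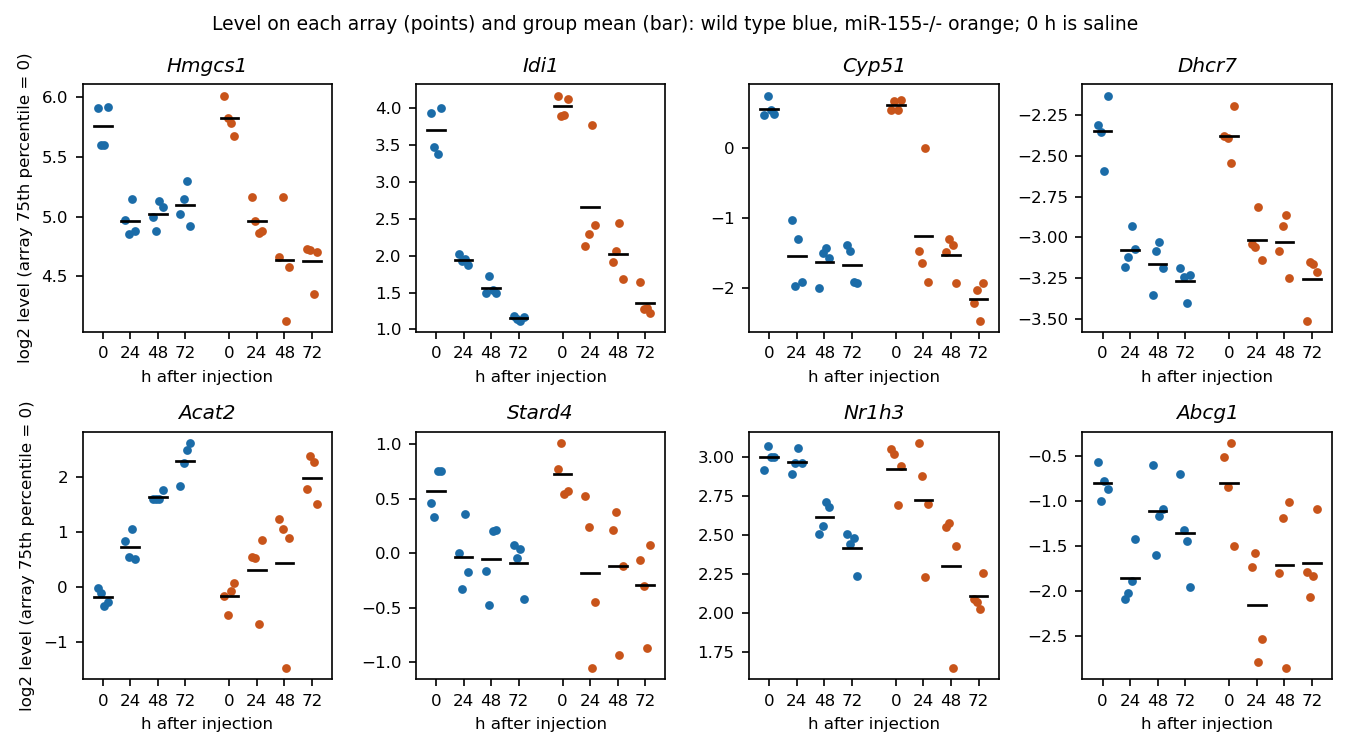
Log2 level of 8 genes on each array (points) with the group mean (bar), wild type in blue and miR-155-/- in orange, against hours after injection (0 is saline); the 75th percentile of each array is 0. Hmgcs1, Idi1, Cyp51 and Dhcr7 lie below saline on every cisplatin array, wild-type Acat2 lies between 1.84 and 2.62 at 72 h, and the lowest orange points of Stard4, Nr1h3 and Abcg1 at 24 and 48 h are replicate 3 of each group.

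The enzymes that strip methyl groups after Cyp51 did not move together. Nsdhl, a dehydrogenase of that step, read -0.68, -0.82, -0.90 and -0.55 with saline, -1.80, -1.90, -1.43 and -1.83 at 24 h, -1.58, -1.11, -0.82 and -0.87 at 48 h and -1.09, -0.99, -1.27 and -0.92 at 72 h in wild type. In miR-155-/- it read -0.89, -0.58, -0.54 and -0.40 with saline, -1.60, -1.59, -1.43 and -2.12 at 24 h, -0.96, -0.97, -1.99 and -1.16 at 48 h and -1.83, -1.18, -1.31 and -1.17 at 72 h. At 24 h all arrays of both genotypes lay below saline, and at 48 h wild-type arrays overlapped it. The wild-type differences were -1.0 ± 0.20, -0.36 and -0.33, called at 24 h only (adjusted p 0.000245; 0.213 and 0.247 later). The miR-155-/- differences were -1.08, -0.67 and -0.77, all called (limma adjusted p 7.92e-05, 0.00865 and 0.00343). The 48 h call was lost without miR-155-/- 48 h replicate 3 (-0.43), with normexp (-0.29) and when only the compared groups were fitted (adjusted p 0.0723). Nsdhl's dimmer probe gave -0.36 and -0.39 at 48 and 72 h in miR-155-/-, neither called.

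Msmo1, the methylsterol oxidase, rose in miR-155-/- at 24 h (0.78 ± 0.19, adjusted p 0.00128) and 48 h (0.72, 0.00306), and differed by 0.27, 0.02 and -0.29 in wild type without a call. Msmo1 was 0.59 higher at 24 h and 0.50 at 48 h without the 2 arrays that stood apart, both called (adjusted p 0.0012 and 0.00725). Hsd17b7, the ketoreductase of the same step, was called higher in wild type at 72 h (0.56 ± 0.20) and in miR-155-/- at 24 and 48 h (0.58 and 0.51; adjusted p 0.0347, 0.016 and 0.0344 by limma). None of these Hsd17b7 calls held in every fit: the first was lost without wild-type saline or 72 h replicate 2, 3 or 4 (0.51 to 0.57). The miR-155-/- call at 24 h was lost without 24 h replicate 3 or 4 (0.38 to 0.48), and that at 48 h without saline replicate 2, 3 or 4 or 48 h replicate 3 (0.25 to 0.53), and all were lost with normexp. Without both arrays that stood apart the Hsd17b7 value at 24 h was 0.38, called (adjusted p 0.0155). Tm7sf2, a sterol reductase, was called lower at each time in miR-155-/- (-0.46 ± 0.11, -0.61 and -0.69), with -0.25, -0.27 and -0.06 in wild type.

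Ebp, the isomerase that shifts the ring double bond, fell in most comparisons. Wild-type arrays gave 4.59, 4.35, 4.63 and 4.67 with saline, 3.87, 3.91, 3.93 and 3.84 at 24 h, 3.65, 3.70, 4.09 and 4.17 at 48 h and 4.23, 4.52, 4.38 and 4.16 at 72 h. Those of miR-155-/- gave 4.77, 4.65, 4.08 and 4.43 with saline, 3.93, 3.93, 4.14 and 4.05 at 24 h, 3.61, 3.94, 3.87 and 3.58 at 48 h and 3.98, 4.19, 4.02 and 4.26 at 72 h. At 24 and 48 h all wild-type arrays lay below saline, and at 72 h both genotypes overlapped their saline range. Differences were -0.67 ± 0.13, -0.66 and -0.24 in wild type (adjusted p 0.00014, 0.000365 and 0.182) and -0.47, -0.74 and -0.37 in miR-155-/- (0.00333, 4.88e-05 and 0.0239, limma). The miR-155-/- call at 72 h was lost without saline replicate 1 or 2 or 72 h replicate 1 or 3 (-0.34 to -0.28), with normexp (adjusted p 0.052) and with only the compared groups fitted (0.0624). Sc5d, the desaturase of the next step, was called lower in miR-155-/- at 72 h (-0.44 ± 0.16, adjusted p 0.0314), and the call was lost without saline replicate 1 or 4 or 72 h replicate 2 or 4 (-0.42 to -0.38) and with the array slide as a block (-0.29).

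Dhcr7, a reductase that yields cholesterol in the last step, was lower at every time. Levels in wild type were -2.31, -2.35, -2.59 and -2.13 with saline, -3.18, -3.12, -2.93 and -3.07 at 24 h, -3.35, -3.08, -3.03 and -3.19 at 48 h and -3.19, -3.24, -3.4 and -3.23 at 72 h. Levels in miR-155-/- were -2.38, -2.39, -2.54 and -2.19 with saline, -3.04, -3.06, -2.81 and -3.14 at 24 h, -3.08, -2.93, -2.86 and -3.25 at 48 h and -3.51, -3.15, -3.16 and -3.21 at 72 h. Every cisplatin array lay below every saline array of its genotype. The differences were -0.73 ± 0.12, -0.82 and -0.92 in wild type and -0.64, -0.65 and -0.88 in miR-155-/-, falls of 1.56- to 1.9-fold with adjusted p from 1.39e-06 to 9.76e-05 (limma). With normexp background correction none of the 6 was called: the wild-type values were -0.38, -0.67 and -0.77 and the miR-155-/- values -0.55, -0.09 and -0.43, each ± 0.34, with adjusted p from 0.15 to 0.847.

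**Figure D3:**
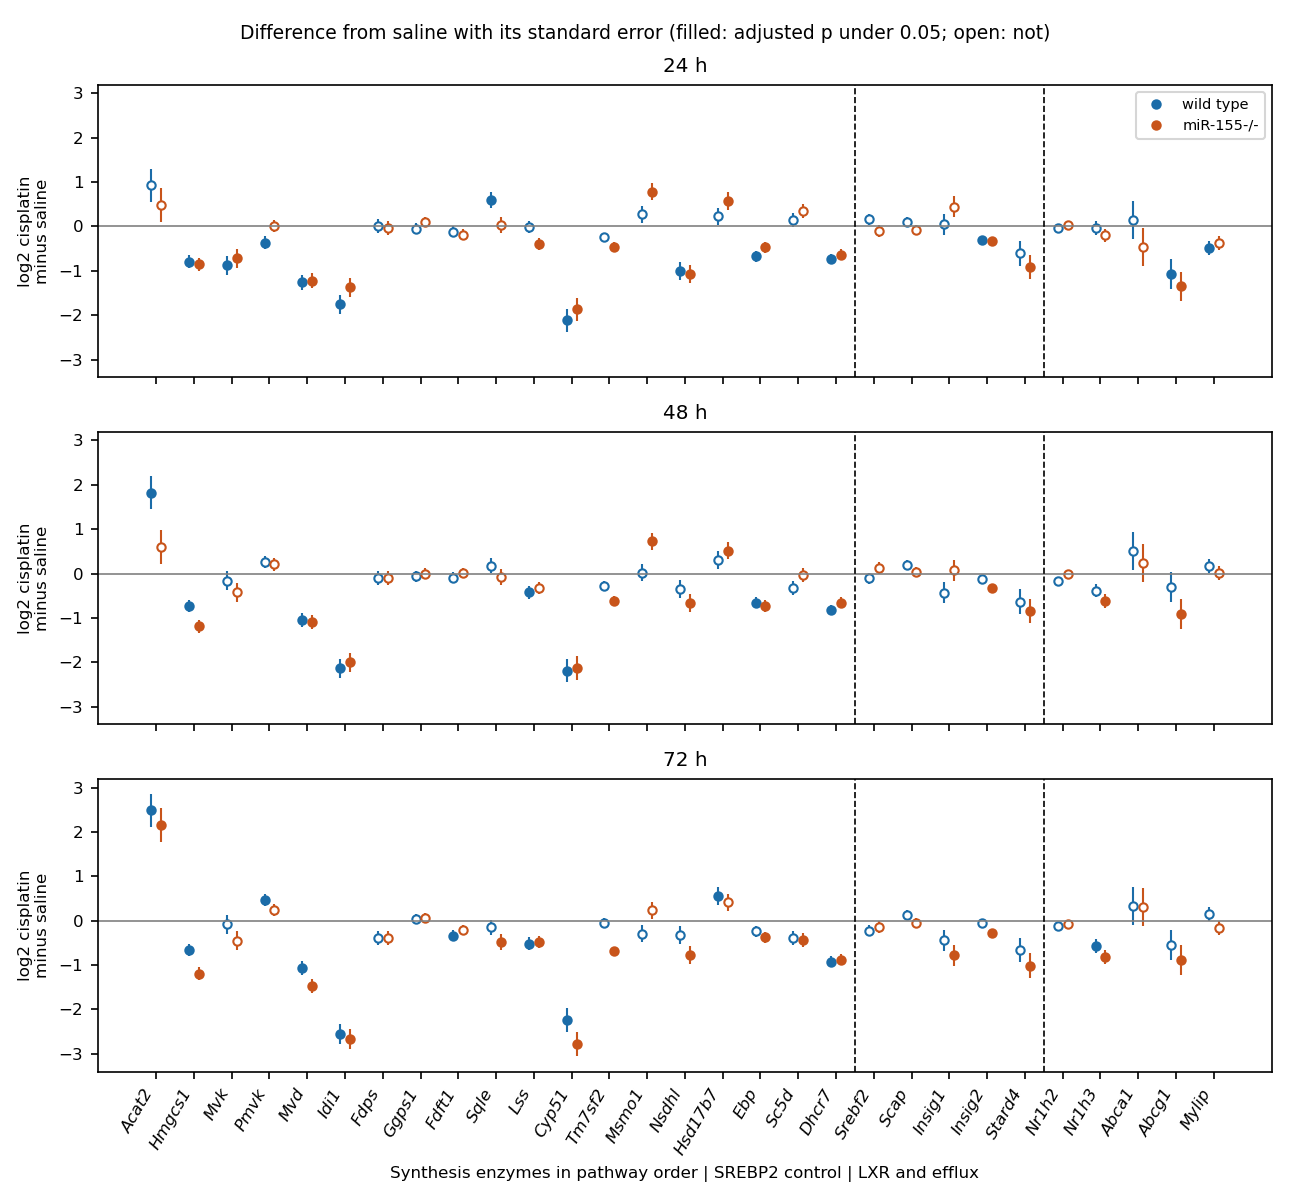
Log2 difference between cisplatin and saline with its standard error for the 29 genes, synthesis enzymes in pathway order, then SREBP2 control, then LXR and efflux genes, at 24, 48 and 72 h (panels); wild type is blue, miR-155-/- orange, and filled points were called. The steps from Fdps to Lss lie between -0.52 and 0.60, flanked by the low points of Idi1 and Cyp51, which reach -2.67 and -2.77 at 72 h in miR-155-/-.

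Of the 5 genes that control SREBP2, 1, 0 and 0 were called lower in wild type at 24, 48 and 72 h and 2, 2 and 3 in miR-155-/-. With the probes used and all arrays in the fit, none was called higher. Of all genes, 17.6%, 11.6%, 12.8%, 22.5%, 21.1% and 17.5% were called lower in the same order. Stard4, an SREBP2 target that carries sterol between membranes, had wild-type levels of 0.46, 0.33, 0.75 and 0.75 with saline, 0.00, -0.33, 0.36 and -0.17 at 24 h, -0.16, -0.47, 0.20 and 0.21 at 48 h and 0.08, -0.04, 0.04 and -0.42 at 72 h. Its miR-155-/- levels were 0.77, 1.01, 0.54 and 0.57 with saline, 0.52, 0.24, -1.05 and -0.45 at 24 h, 0.21, 0.38, -0.93 and -0.12 at 48 h and -0.06, -0.30, -0.87 and 0.08 at 72 h. At 48 and 72 h all arrays of both genotypes lay below saline. The wild-type differences of -0.61 ± 0.28, -0.63 and -0.66 were not called (adjusted p 0.0817, 0.0991 and 0.082), and those of -0.91, -0.84 and -1.01 in miR-155-/- were (0.00757, 0.0146 and 0.00477, limma). The call at 24 h was lost without miR-155-/- 24 h replicate 3 (-0.62), and that at 48 h without 48 h replicate 3 (-0.57) and with normexp (adjusted p 0.0535). Without both arrays the miR-155-/- calls at 24 and 48 h held (adjusted p 0.0232 and 0.0462), and limma called Stard4 lower at 24, 48 and 72 h in wild type (adjusted p 0.0173, 0.019 and 0.0143).

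Insig2, which retains SREBP2 in the endoplasmic reticulum, was called lower by small amounts in wild type at 24 h (-0.30 ± 0.08) and in miR-155-/- at each time (-0.33, -0.33 and -0.27), but in none of these with its dimmer probe. Insig1, its sterol-induced partner, was called lower in miR-155-/- at 72 h (-0.78 ± 0.24, adjusted p 0.011) but not with normexp (-0.30). Srebf2, which encodes SREBP2, was called in none of the 6 comparisons with the probe used (-0.22 to 0.17). Its other probe was nearly as bright, with a mean level of -1.93 against -1.86. That probe rose by 0.83 to 2.42 and was called higher in all 6 comparisons. Scap, its escort, also had no call with all arrays in the fit.

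None of the 5 LXR and efflux genes was called higher; 2, 0 and 1 were called lower in wild type and 1, 2 and 2 in miR-155-/- at 24, 48 and 72 h. The shares of all genes called higher were 21.0%, 12.2%, 12.5%, 26.6%, 22.7% and 17.7%, and those called lower 17.6%, 11.6%, 12.8%, 22.5%, 21.1% and 17.5%. Nr1h3, which encodes LXR alpha, read 2.92, 3.07, 3.0 and 3.0 with saline, 2.89, 2.96, 3.06 and 2.96 at 24 h, 2.51, 2.56, 2.71 and 2.68 at 48 h and 2.51, 2.44, 2.48 and 2.24 at 72 h in wild type. In miR-155-/- it was at 3.05, 3.02, 2.69 and 2.94 with saline, 3.09, 2.88, 2.23 and 2.70 at 24 h, 2.55, 2.58, 1.65 and 2.43 at 48 h and 2.09, 2.07, 2.03 and 2.26 at 72 h. In both genotypes the 48 and 72 h arrays all lay below saline, and the 24 h arrays overlapped it. The wild-type differences were -0.03 ± 0.15, -0.38 and -0.58, called at 72 h (adjusted p 0.9, 0.071 and 0.00578). Those of miR-155-/- were -0.20, -0.62 and -0.81, called at 48 and 72 h (0.292, 0.00183 and 0.000125, limma). At 48 h the miR-155-/- value was -0.41 without 48 h replicate 3, still called (adjusted p 0.0129), and the wild-type 48 h difference was called without both arrays that stood apart (adjusted p 0.000819). Fitting only the compared groups ended the miR-155-/- 48 h call (adjusted p 0.058).

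Abcg1, which exports cholesterol to high-density lipoprotein, varied widely. Its wild-type levels were -0.56, -0.99, -0.77 and -0.86 with saline, -2.09, -2.02, -1.89 and -1.42 at 24 h, -0.60, -1.59, -1.16 and -1.08 at 48 h and -0.69, -1.32, -1.44 and -1.95 at 72 h. In miR-155-/- the levels were -0.51, -0.84, -0.35 and -1.5 with saline, -1.73, -1.57, -2.78 and -2.53 at 24 h, -1.80, -1.18, -2.85 and -1.01 at 48 h and -1.78, -2.06, -1.83 and -1.08 at 72 h. All 24 h arrays of both genotypes lay below saline, and the later ones overlapped it. The differences were -1.06 ± 0.34, -0.31 and -0.56 in wild type, called at 24 h (adjusted p 0.0138, 0.562 and 0.247), and -1.35, -0.91 and -0.89 in miR-155-/-, all called (limma adjusted p 0.00162, 0.0299 and 0.0409). The miR-155-/- call at 48 h was lost without saline or 48 h replicate 1 or 3 (-0.88 to -0.53), and that at 72 h without saline or 72 h replicate 1, 2 or 3 (-0.90 to -0.74). Normexp gave -0.76 at 24 h in wild type and -0.32 and -0.72 at 48 and 72 h in miR-155-/-, none called.

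Abca1, which exports cholesterol to apolipoprotein, overlapped saline in all 6 comparisons, with differences from -0.46 to 0.51 ± 0.43 and no call. Without the 2 arrays that stood apart it was called higher in miR-155-/- at 48 h (0.88 ± 0.30, adjusted p 0.02). Nr1h2, which encodes LXR beta, was not called. Mylip was called lower in wild type at 24 h (-0.49 ± 0.16, adjusted p 0.0136); the call was lost without wild-type saline replicate 2 (-0.42) and with its dimmer probe (-0.29).

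Averaged per array over the 19 genes and set against the saline mean, the synthesis genes lay between -0.48 and -0.39 in wild type at 24 h, -0.53 and -0.30 at 48 h and -0.44 and -0.33 at 72 h. Saline arrays of that genotype lay between -0.15 and 0.07. In miR-155-/- the ranges were -0.39 to -0.16, -0.59 to -0.17 and -0.58 to -0.41, against -0.07 to 0.15 with saline. All 24 cisplatin arrays had a synthesis mean below all 8 saline arrays. The gap was narrow, with miR-155-/- 24 h replicate 3 at -0.16 and wild-type saline replicate 3 at -0.15. The mean of the 5 LXR and efflux genes ranged from -0.39 to 0.15 over the wild-type cisplatin arrays and from -1.12 to 0.00 over those of miR-155-/-, and overlapped the saline range of -0.20 to 0.23. At 24, 48 and 72 h its group averages were -0.24, 0.03 and -0.09 in wild type and -0.53, -0.32 and -0.39 in miR-155-/-. Those of the synthesis mean were -0.45, -0.4 and -0.39, and -0.33, -0.38 and -0.5. Synthesis minus efflux was -0.35 to 0.13 on wild-type saline arrays and -0.01 to 0.24 on those of miR-155-/-. In this difference each cisplatin group overlapped the saline range of its genotype. The lowest efflux means, -0.92 and -1.12, came from the 2 arrays that stood apart, and the next, -0.70, from miR-155-/- replicate 4 at 24 h. These means describe a chosen list and carry no test.

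**Figure D4:**
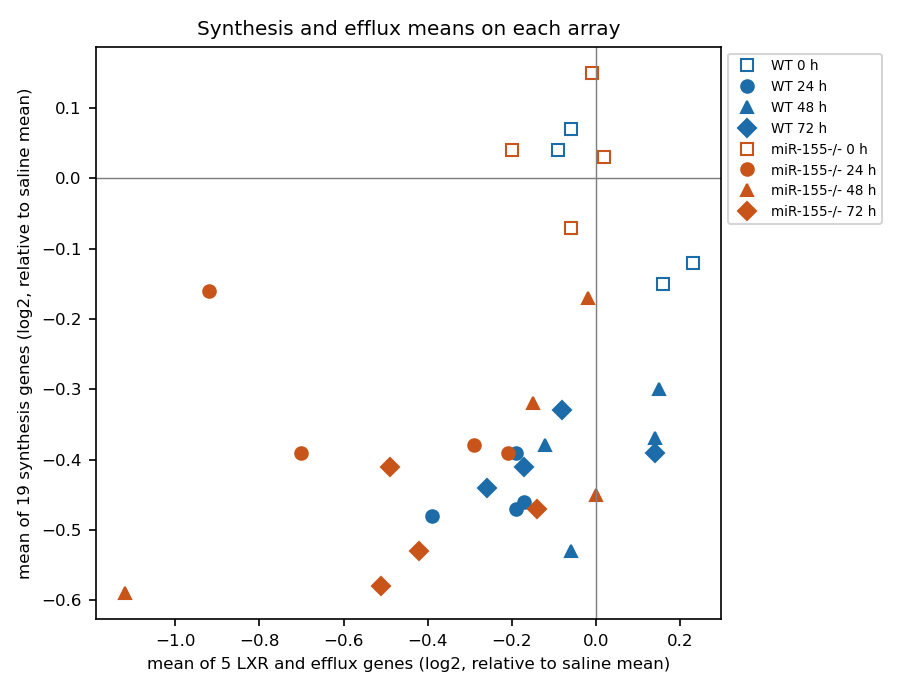
Mean log2 level of the 19 synthesis genes (vertical) against that of the 5 LXR and efflux genes (horizontal) on each of the 32 arrays, both relative to the mean of the 8 saline arrays; open squares are saline, blue is wild type and orange miR-155-/-. All cisplatin arrays lie lower than all saline arrays, the nearest at -0.16 against -0.15. Most cisplatin arrays lie left of or near 0. The 2 arrays of miR-155-/- farthest left lie at -0.92 and -1.12, with miR-155-/- replicate 4 at 24 h next at -0.70.

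Between times after cisplatin, 6 of the 29 genes differed in wild type from 24 to 48 h, against 13.1% of all genes. Mvk (0.71 ± 0.21), Pmvk (0.63 ± 0.14), Nsdhl (0.65 ± 0.20) and Mylip (0.66 ± 0.16) were higher at 48 h, with limma adjusted p 0.0249, 0.00288, 0.0315 and 0.00468. Lss (-0.41 ± 0.14) and Sc5d (-0.49 ± 0.16) were lower. Leaving out wild-type 24 h replicate 1, 2 or 4 or 48 h replicate 2, 3 or 4 left 3, 2, 2, 3, 3 and 2 genes called. The Mvk call was lost in 5 of these fits (0.64 to 0.71), that of Nsdhl in all 6 (0.55 to 0.65), that of Sc5d in 6 fits (-0.50 to -0.43) and that of Lss in 24 of the 32 fits without an array (-0.45 to -0.35). From 48 to 72 h in wild type limma called 0 genes, against 0.872% of all genes. At an unadjusted p under 0.05 there was 1 gene, with no share of all genes given for comparison.

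In miR-155-/- kidneys limma called 0 genes from 24 to 48 h, against 4.02% of all genes. At an unadjusted p under 0.05 there were 6 genes, with no share of all genes given for comparison. Without 48 h replicate 3 limma called 9, and with array weights 8, and the shares of all genes in these fits are not given here. From 48 to 72 h it called 2, against 6.25%: Acat2 was higher at 72 h (1.56 ± 0.38, adjusted p 0.0115) and Insig1 lower (-0.86 ± 0.24, 0.0289). Without 48 h replicate 3 the Acat2 value was 0.93, still called, and the Insig1 value -0.55, not called. The Insig1 call was also lost without 72 h replicate 2, 3 or 4, which left 1 gene called in each case. Without miR-155-/- 24 h replicate 3 or 48 h replicate 3, 4 genes were called.

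No member was called different between the genotypes at 0, 24, 48 or 72 h in limma's test; 1, 8, 8 and 6 had an unadjusted p under 0.05. Over all genes, 0.114%, 0.0801%, 0.101% and 0.720% were called. These shares rest on adjusted p. The share of all genes at an unadjusted p under 0.05 is not given here, so the unadjusted counts have no background. At 24 h Idi1 differed by 0.71 ± 0.22 (miR-155-/- minus wild type; adjusted p 0.477), and by 0.34 ± 0.13 without the 2 arrays that stood apart (0.616). At 48 h Acat2 differed by -1.21 ± 0.38, with a 95% interval of -1.98 to -0.44 and adjusted p 0.289, and Msmo1 by 0.66 ± 0.19 (0.276). With both arrays that stood apart left out, these were -0.58 ± 0.19 for Acat2 (adjusted p 0.719) and 0.44 ± 0.14 for Msmo1 (0.746). At 72 h Hmgcs1 differed by -0.47 ± 0.14, with an interval of -0.76 to -0.18 and adjusted p 0.13. With array weights 8 members were called at 72 h and 1 at 48 h, and without the 2 arrays that stood apart 4 were called at 72 h: Hmgcs1, Scap and Nr1h3 were lower in miR-155-/- and Msmo1 higher (adjusted p 0.0255, 0.0324, 0.0381 and 0.0381). The shares of all genes called in these fits are not given here. The 0.720% at 72 h belongs to the main fit and is no background for them.

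The difference between the genotypes in the response to cisplatin was called for 0 members at 24, 48 and 72 h. Of all genes, limma called 0%, 0% and 0.211%. At an unadjusted p under 0.05 there were 1, 4 and 2 members, with no share of all genes given for comparison. Tm7sf2, singled out after its values were seen, had the smallest adjusted p. Its wild-type levels were 0.99, 0.67, 0.90 and 1.18 with saline, 0.64, 0.70, 0.86 and 0.57 at 24 h, 0.42, 0.54, 0.91 and 0.78 at 48 h and 0.83, 0.94, 0.89 and 0.87 at 72 h. Its miR-155-/- levels were 1.40, 1.24, 1.3 and 1.31 with saline, 0.65, 0.88, 1.08 and 0.81 at 24 h, 0.69, 0.68, 0.79 and 0.66 at 48 h and 0.47, 0.73, 0.63 and 0.67 at 72 h. The saline arrays of miR-155-/- lay above those of wild type, and at 72 h the miR-155-/- arrays lay below the wild-type ones. The response of Tm7sf2 at 72 h differed by -0.64 ± 0.15, with a 95% interval of -0.95 to -0.32 and adjusted p 0.0698. For Tm7sf2 this was called with slide as a block (-0.68, adjusted p 0.0326) or a random block (0.0154), with only the compared groups (0.022), with array weights (0.0128), without the 2 arrays that stood apart (0.0204) and without wild-type saline replicate 4 (0.0492). It was also called without miR-155-/- 24 h replicate 3 (0.0446), wild-type 48 h replicate 3 (0.0489) or miR-155-/- 48 h replicate 3 (0.0391). It was not called with normexp (-0.68, adjusted p 0.223), with the mean of all probes (-0.52, 0.218), with the dimmer probe (-0.40, 0.557) or in the fits without another array, where the largest adjusted p was 0.202, without miR-155-/- 72 h replicate 1. Nor did limma call it with quantile normalization (adjusted p 0.0547), the deposited value table (0.0692) or no filter on dim probes (0.0943). Requiring signal well above background on all arrays (0.067) gave no call either. The same held with replicate number (0.0756) or scan day (0.0792) as a block and with no mean-variance trend (0.0832).

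A pair of probes was present for 12 of the 29 genes, and in 7 pairs both responses lay within 0.5 log2 units of each other in all 6 comparisons. Srebf2 differed most: its dimmer probe, also well above background, rose by 2.20 ± 0.25, 1.73 and 0.83 in wild type and by 2.13, 2.42 and 1.54 in miR-155-/-, all called, while the brighter probe stayed between -0.22 and 0.17. Ggps1's dimmer probe rose by 0.71 to 1.02 in all 6 comparisons, and its brighter probe had no call. The dimmer Hsd17b7 probe gave 0.47 to 1.52, against 0.23 to 0.58 with the brighter. Stard4's dimmer probe gave -0.12 and -0.41 at 24 and 48 h in miR-155-/-, not called, and -0.70 and -1.22 at 72 h in wild type and miR-155-/-, both called. Fdft1's probes differed by up to 0.63. Which transcripts each probe reads was not tested, and the call for Srebf2 and Ggps1 depends on the probe.

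**Figure D5:**
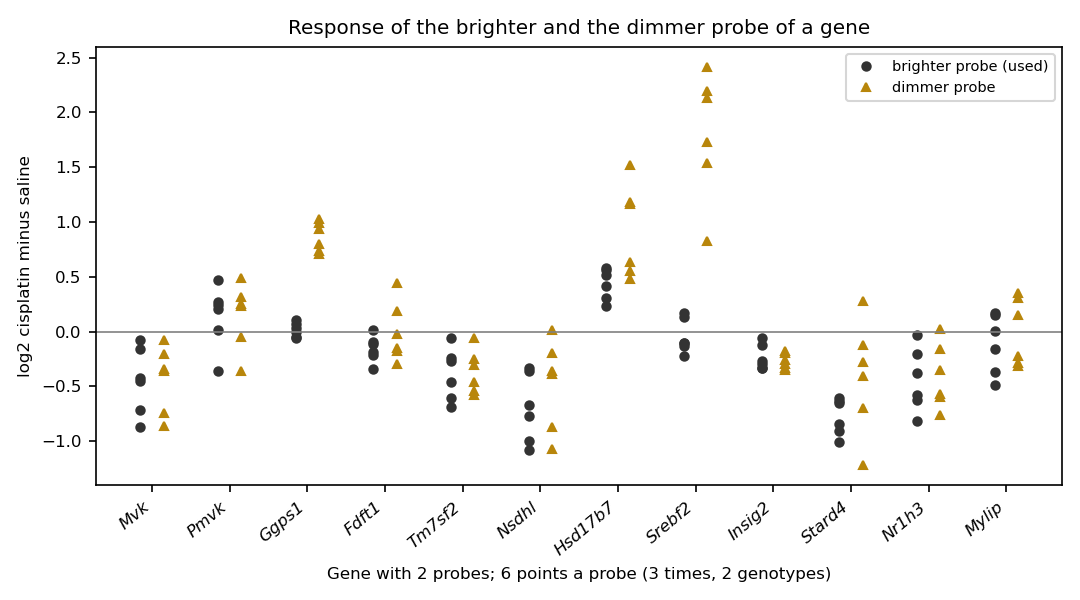
Log2 difference between cisplatin and saline from the brighter probe (circles, the one used) and the dimmer probe (triangles) of the 12 genes with a pair of probes, 6 points a probe (3 times in each genotype). The probes of Srebf2 are up to 2.28 log2 units apart and those of Ggps1 up to 0.99, while those of Nr1h3 differ by at most 0.06.

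Of 10 further genes that process SREBP, 3, 3 and 3 were called lower in wild type and 5, 5 and 6 in miR-155-/-. Mbtps1, the Golgi protease that first cuts SREBP, fell in all 6 comparisons (-0.60 to -0.95). Srebf1, which encodes the lipogenic SREBP1, was -0.53, -0.99 and -1.32 in miR-155-/-, all called, and -0.86 at 72 h in wild type, called. Erlin2, an endoplasmic reticulum scaffold protein, was called lower at all times in miR-155-/- and at 24 and 48 h in wild type (down to -0.50).

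Of 13 genes of oxysterols and LXR partners, 5 were called lower at each time in wild type and 8, 8 and 5 in miR-155-/-, with at most 1 higher. The oxysterol hydroxylases Cyp7b1 (-0.89 to -1.48) and Cyp39a1 (-0.80 to -1.52) and the LXR target Smpdl3a (-0.30 to -1.16) fell in all 6 comparisons. The coactivator Ncoa1 was called lower in wild type at 24 h and at all times in miR-155-/- (down to -1.25).

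Of 14 genes of cholesterol trafficking and storage, 2, 1 and 0 were called higher in wild type and 2 at each time in miR-155-/-, with 3, 0, 1, 4, 2 and 2 lower. Npc1, which moves cholesterol out of lysosomes, was called higher in all comparisons except wild type at 72 h (up to 1.29 ± 0.19). Scarb1, a lipoprotein receptor, was lower at 24 h (-0.62 in wild type and -0.38 in miR-155-/-) and higher in miR-155-/- at 72 h (0.65), all called. Of 11 genes on the branches from mevalonate to ubiquinone, dolichol and prenylated proteins, 4, 3, 5, 4, 5 and 4 were called lower and 2, 1, 1, 2, 1 and 1 higher. The ubiquinone side-chain synthases Pdss2 (-0.88 to -2.47) and Pdss1 (-0.73 to -0.94) fell in all 6 comparisons. Fntb, the farnesyltransferase beta subunit, fell at 24 h (-1.58 and -1.63) and was called higher in miR-155-/- at 72 h (0.65). The background for these counts is the share of all genes given above for each comparison.

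Markers of kidney cell types moved beside these genes. Of 10 proximal tubule markers, 9, 4 and 4 were called lower in wild type and 9, 9 and 8 in miR-155-/-, and none was called higher. Of all genes, 17.6%, 11.6% and 12.8% were called lower in wild type and 22.5%, 21.1% and 17.5% in miR-155-/-, which is the background for each marker count here. Their summed linear level was 631 to 697 on wild-type saline arrays, 388 to 451 at 24 h, 328 to 504 at 48 h and 440 to 479 at 72 h. In miR-155-/- it was 527 to 754, 390 to 539, 377 to 442 and 299 to 393. Of 8 distal tubule markers, 8, 4, 4, 7, 6 and 5 were called lower, with sums of 173 to 206 with saline and 35.6 to 67.2 at 24 h in wild type. Macrophages express Abca1, Abcg1 and Nr1h3; of their 9 markers tested, 3, 3, 7, 4, 4 and 2 were called lower, and the sum was 25.2 to 28.4 with saline and 9.49 to 14.4 at 72 h in wild type, and 21.3 to 28.1 and 11.6 to 16.5 in miR-155-/-. Of the 5 hepatocyte markers tested, 4, 4, 3, 5, 5 and 3 were called lower. Markers of the adrenal cortex, a steroid-making tissue next to the kidney, summed to 0.0688 to 0.239. Of these markers, Cyp11a1, Cyp11b1 and Cyp11b2 were well above background on 0, 1 and 3 arrays, and Star, Cyp21a1 and Hsd3b1 on 32, 32 and 20. The part of these cell types in the results was not tested.

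Arrays shared 8 slides and 2 scan days, and slides held arrays of several groups. Where a slide held saline and cisplatin arrays of a genotype, every called member kept its sign within it: 13 of 13 on the slide with wild-type 24 h arrays, 8 of 8 on both slides with 48 h arrays, 15 of 15 on both slides with miR-155-/- 24 h arrays, 14 of 14 at 48 h and 17 of 17 on both at 72 h. The calls came from a fit that included these same arrays, so the agreement in sign was partly fixed in advance. On the 48 h miR-155-/- slide and on 1 of the 24 h miR-155-/- slides the cisplatin array was replicate 3, the array that stood apart. No slide held saline and 72 h arrays of wild type. Within slides Idi1 differed by -2.67 to -0.36 and Cyp51 by -3.01 to -0.69, the smallest on the slide with miR-155-/- replicate 3 at 24 h. With slide as a block, Cyp51 differed by -2.74 to -1.74, Idi1 by -2.51 to -1.35, Mvd by -1.46 to -1.01, Hmgcs1 by -1.35 to -0.81 and Dhcr7 by -0.85 to -0.62, and limma called each of these differences in all 6 comparisons. The slide block ended 3 calls, those of Pmvk in wild type at 24 h, Sc5d in miR-155-/- at 72 h and Lss in wild type from 24 to 48 h.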

How the data were processed

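Kidney RNA of 32 animals was hybridised to single-colour (Cy3) arrays, and the deposited scanner files hold processed spot intensity from Feature Extraction 10.7.3.1, per the file headers and the submitters' processing notes. The deposited value table, on a linear scale rounded to 1 decimal, gave a 75th percentile of 999.3 to 1000 on each array and served as an alternative intensity source; its 0 columns outside these samples were left unused. Intensities were converted to log2 minus each array's 75th percentile (1531.5 to 2646.8 before scaling). Control spots and outlier-flagged values were left out. RefSeq symbols were found for 27234 of 39429 probes (20659 genes). The filter kept the 23734 genes and unnamed transcripts whose brightest probe passed the scanner software's background test throughout some group of 4 arrays and kept 3 values in each group. All 8 groups were fitted together with limma 3.58.1 in R 4.3.3 (lmFit, eBayes with trend), 2-sided, with Benjamini-Hochberg adjustment over all tested. Animals were independent per the labels' protocols, and no replicate block was used. Scripts were tested on simulated data. The number of arrays limits the precision.

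Members and lists were chosen with earlier results of these data known. Values on every array are printed for the 12 members with the largest mean absolute log2 difference over the 6 cisplatin comparisons, and up to 4 called genes with the smallest adjusted p are named of each other list, except 1 that is not reported here; Tm7sf2 and Acat3 were added after their values were seen. Alternatives were normexp background correction, run on median spot and background signals in place of the mean spot signal first planned, quantile normalization, the deposited value table, other filters, the mean of probes, slide, replicate and array-weight settings, and each array left out.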

Additional observations from a re-analysis of the deposited data

Results flagged for a closer look

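In 13 of the 230 groups of 4 arrays checked over the 29 genes, the highest or lowest array lay far from the other 3 by Dixon's criterion; chance gives such a gap in about 1 in 20 groups. In 5 of these cases the array was miR-155-/- replicate 3 at 48 h, which read -1.48 for Acat2 (next 0.88), -2.39 for Abca1 (next 0.01) and 1.65 for Nr1h3 (next 2.43) at the low end, and -0.31 for Hsd17b7 (next -1.30) and 1.71 for Sc5d (next 0.85) at the high end. On that array the summed red blood cell markers were 34.5, against 0.555 to 1.82 on the others of its group, and their part in these values was not tested. At 72 h in miR-155-/-, replicate 3 was low for Hmgcs1 (4.35, next 4.70) and Sqle (2.49, next 2.87), and replicate 1 was high for Idi1 (1.65, next 1.29) and low for Dhcr7 (-3.51, next -3.21). miR-155-/- saline replicate 1 was high for Fdps (2.27, next 1.99). In wild type, 48 h replicate 4 was high for Acat2 (1.77, next 1.60), 48 h replicate 2 was high for Idi1 (1.73, next 1.53), and 24 h replicate 2 was high for Mvd (0.39, next 0.30). Each wild-type gap and several of the others were narrow on the log2 scale.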

How the results depend on the processing

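Of 86 called differences of the 29 genes, 0 changed sign under any alternative, 21 lost the call when 1 array was left out, and 29 lost it with normexp background correction, under which 7, 5, 4, 8, 6 and 7 synthesis genes were called lower (wild type then miR-155-/-, 24, 48 and 72 h). The alternatives on scan day, the 2 arrays that stood apart, the dimmer probe and normexp on median signals were chosen after seeing the data. Over all genes, normexp called 5241, 2973, 3042, 7146, 5183 and 4776, against 9179, 5657, 6016, 11662, 10394 and 8363. For the other alternatives the counts over all genes are not given here, so shifts in the member counts below have no background. In wild type at 72 h, synthesis genes called lower were 4 with normexp, 11 with only the compared groups and 12 with array weights, against 7, and in miR-155-/- at 72 h 7 with normexp, against 11. Of the LXR and efflux genes, in wild type at 24 h (2) normexp, the mean of probes and the dimmer probe each left 1. In wild type at 48 h (0) quantile normalization, slide as a block or random block, only the compared groups, scan day and dropping the 2 arrays gave 1 and array weights 4; at 72 h (1) quantile normalization and array weights gave 2. In miR-155-/- at 24 h (1) quantile normalization, the filter on all arrays, slide as a block or random block and dropping the 2 arrays gave 2. At 48 h (2) normexp gave 1 and only the compared groups 0, and at 72 h (2) normexp and no filter gave 1. Between times, wild type 24 to 48 h (6) gave 11 with only the compared groups, 14 with array weights and 13 without the 2 arrays. Wild type 48 to 72 h (0) gave 1 with slide as a random block, only the compared groups or array weights, and 2 without the 2 arrays. miR-155-/- 24 to 48 h (0) gave 5 with normexp, 8 with array weights and 8 without the 2 arrays. miR-155-/- 48 to 72 h (2) gave 1 with normexp, 4 and 5 with slide as a block and random block, 0 with only the compared groups, 12 with array weights, 8 without the 2 arrays and 4 with the dimmer probe. Genotype counts (0) became 1 at 48 h with array weights, and at 72 h 1 with only the compared groups, 8 with array weights and 4 without the 2 arrays; the interaction at 72 h became 1 with slide as a block or random block, only the compared groups, array weights and without the 2 arrays. Leaving out 1 array at a time gave 8 to 10, 6 to 8, 6 to 9, 9 to 10, 7 to 9 and 8 to 13 synthesis genes lower, 1 to 2, 0 to 1, 1 to 1, 1 to 2, 1 to 2 and 1 to 2 LXR and efflux genes, 2 to 9, 0 to 0, 0 to 9 and 1 to 4 genes between times, and 0 to 1 for genotype and interaction at 72 h and 0 to 0 at other times. The cause of these shifts was not tested. Arrays with the same replicate number did not deviate together (median correlation 0.00342 over 112 pairs), whereas arrays of different groups on a slide had a median of 0.244 over 48 pairs; 3 calls were lost with slide as a block and 1 as a random block. With the replicate number as a block, synthesis genes called lower were 8, 7, 8, 10, 8 and 12, and 2 calls were lost, Pmvk in wild type at 24 h and Lss in wild type from 24 to 48 h. Signal over background was not tested as a limit on single genes; Dhcr7 lost all 6 calls with normexp.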

Other observations

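Ch25h, the enzyme that makes the LXR ligand 25-hydroxycholesterol, was singled out after its values were seen. It was called higher in miR-155-/- at 24, 48 and 72 h (1.34 ± 0.48, 1.92 and 1.59; limma adjusted p 0.0212, 0.002 and 0.0102), and differed by -0.42, -0.18 and -0.29 in wild type without a call. The difference between the genotypes in this response was 1.77 ± 0.68, 2.09 and 1.88, with adjusted p 0.94, 0.57 and 0.375, and was not called. Stard3, which holds sterol at late endosomes, was called lower at 72 h in both genotypes (-0.35 in wild type and -0.33 in miR-155-/-). Nus1, a subunit of the dolichol synthase, was called higher at 24 and 48 h in both genotypes (1.03 and 0.60 in wild type, 1.16 and 0.94 in miR-155-/-), and Gramd1c, a sterol transfer protein, was called lower at 24 h in both (-0.29 and -0.42).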
